A study of Mus musculus with 4 samples.

Results

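The genes described here are a set of 44 mouse interferon-stimulated genes, chosen by symbol and grouped by role into 21 antiviral effectors, 5 nucleic acid sensors, 9 GTPases, 4 transcription factors and 5 regulators. They were found on the array through the RefSeq accession of each probe, and 42 of the 44 matched, among 19751 genes that received a symbol. Mx1 and Mx2 matched no probe and were not analysed here. Where a gene had several probes, as 13 of the 42 did, the one with the highest mean was used. All 42 were well above background on all 4 arrays, so that no gene entered the comparison through the genotype in which it was brighter.

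RNA of bone marrow-derived dendritic cells was measured on 4 one-colour arrays, 2 for each genotype. RFF11 cells came from mice that carry loxP-flanked Rbpj alleles (Rbpj fl/fl) and the CD11c-cre transgene, which makes the cre recombinase from the promoter of CD11c (Itgax), and are labelled Rbpj-deficient. RFF cells, the control, carried the Rbpj fl/fl alleles alone. Both genotypes are C57BL/6, from female mice aged 8 weeks. Their marrow cells grew for 6 days in medium with GM-CSF (20 ng/mL), from which the CD11c+ fraction was taken and the RNA of 4 mice pooled. No array holds the cre with intact Rbpj, so the transgene and the loss of Rbpj cannot be told apart. Whether the 2 arrays of each genotype hold separate pools or cultures is not stated, and the p-values therefore rest on a spread between arrays that could be purely technical. In RNA of mixed cells, fewer cells of a type and less RNA per cell cannot be told apart.

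Interferons are secreted proteins that warn cells of infection. Type I interferon binds the receptor Ifnar1/Ifnar2, whose Janus kinases activate transcription factors that include Stat2. With Irf9 these bind a DNA element, the interferon-stimulated response element (ISRE), in front of genes that block viral entry, translation and replication. Interferon-gamma acts mainly at another element, the gamma-activated sequence (GAS), and is known for inducing the GTPases of the GBP and IRG families, which attack the compartments of intracellular microbes. Dendritic cells both make interferon and respond to it, and a low constant exposure is known to keep many of these genes switched on without infection. Rbpj binds DNA and carries the signal of Notch receptors to their target genes.

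Of 43020 spots for genes, 55.2% to 58.4% were well above background on each array. Levels are log2 signal minus the 75th percentile of that array, changes are RFF11 minus RFF on the log2 scale, and SE and p are those of limma fitted to all 17974 genes tested. The genes tested, here and in every share of all genes below, include transcripts that received no symbol. Rbpj read 1.37 and 1.44 on the RFF11 arrays, against 2.69 and 2.61 on the RFF arrays. Its change was -1.25 (SE 0.06, limma adjusted p = 0.0278), which missed the threshold in each fit with 1 array fewer (adjusted p = 0.0660 to 0.133). Of the dendritic cell markers, none of 8 passed and Zbtb46 matched no probe. Itgax, which encodes the CD11c used to take the cells, read 6.65 and 6.45 in RFF11 cells, against 6.69 and 6.63 in RFF cells. Flt3 read -2.37 and -2.38 in RFF11 cells, against -2.72 and -2.78 in RFF cells. The monocyte and macrophage marker Csf1r read 7.32 and 7.31 in RFF11 cells, against 7.27 and 7.27 in RFF cells. Of the other cell types, 7 of 8 neutrophil markers lay above 0 (median change 0.67, 2 higher past the threshold), all 8 markers of mature dendritic cells lay below 0 (median -0.41, 1 lower past the threshold), and the 9 markers of plasmacytoid dendritic cells, the main makers of type I interferon, ran from -1.55 to 1.49 (median -0.09, 1 lower past the threshold). Of the monocyte and macrophage markers 9 of 11 lay below 0 (median -0.15, 1 lower past the threshold), and of the lymphocyte markers (T, B and natural killer cells) 3 of 5 lay below 0 and 1 was higher past the threshold. The part of these cells in the values below was not tested.

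None of the 42 interferon-stimulated genes had a limma p under 0.05 after Benjamini-Hochberg adjustment. Over all genes tested 338 of 17974 did (1.88%), with 1.04% higher and 0.84% lower. The lowest adjusted p was 0.0673, for Ifitm6. At an unadjusted p under 0.05 there were 7 of the 42, or 16.7%, against 24.1% of all genes. Of the 42, 25 lay below 0 and 17 above, with a median change of -0.07, where the median over all genes was -0.01. The RFF11 arrays lay apart from the RFF arrays for 8 genes on the higher side and 11 on the lower side, and overlapped them for 23, or 54.8%. Over all genes the arrays of the genotypes did not overlap for 59.1%, with 26.8% higher and 32.3% lower in RFF11 cells. With 2 arrays against 2, an exact two-sided permutation test of a single gene cannot go below 0.333. The intervals of the fit rest on the spread between these arrays, which could be purely technical. They do not bound a change across mice or cultures. The 95% interval of the change lay inside -1 to 1 for 32 of the 42 and inside -0.5 to 0.5 for 18. It was widest for Rtp4, from -1.57 to 0.56.

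**Figure D1:**
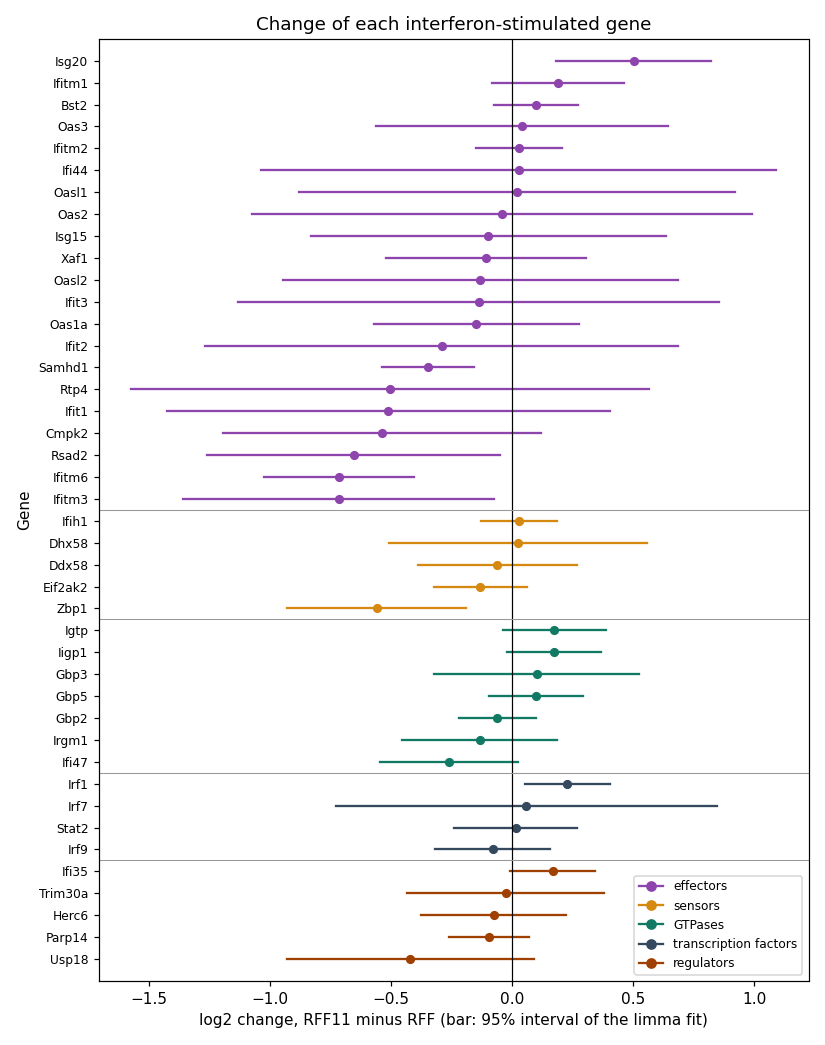
Log2 change of each of the 42 genes in RFF11 minus RFF cells (horizontal axis) with its 95% interval from the limma fit over all genes, grouped by role and ordered by change within each group. The points run from -0.72 for Ifitm3 to 0.50 for Isg20, and none passed the threshold.

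The Ifitm genes encode small membrane proteins that keep enveloped viruses from fusing with the cell. The 4 on the list adjoin each other on chromosome 7 in the order Ifitm2, Ifitm1, Ifitm3, Ifitm6, and they included the 2 lowest changes of the whole set beside changes near 0. Ifitm3 read 1.94 and 2.58 on the RFF11 arrays, against 2.92 and 3.03 on the RFF arrays. Both RFF11 arrays were lower, and they were themselves 0.64 apart. Its change was -0.72 (SE 0.23, adjusted p = 0.181), and leaving out RFF11 replicate 1 moved it to -0.40 and RFF11 replicate 2 to -1.04. Ifitm6 read -1.94 and -1.66 in RFF11 cells, against -1.10 and -1.06 in RFF cells, a change of -0.72 (SE 0.11, adjusted p = 0.0673) with no overlap. It passed under 3 of the other ways of processing, with adjusted p = 0.0361 after normexp background correction, 0.0459 with scaling to the array median and 0.0179 with a variance prior that was robust and followed the signal. Ifitm2 read 2.75 and 2.83 in RFF11 cells, against 2.80 and 2.73 in RFF cells, which overlapped (change 0.03, SE 0.06). Ifitm1 read 6.14 and 6.33, against 6.12 and 5.97 in RFF cells, a change of 0.19 (SE 0.10, adjusted p = 0.324) with no overlap.

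**Figure D2:**
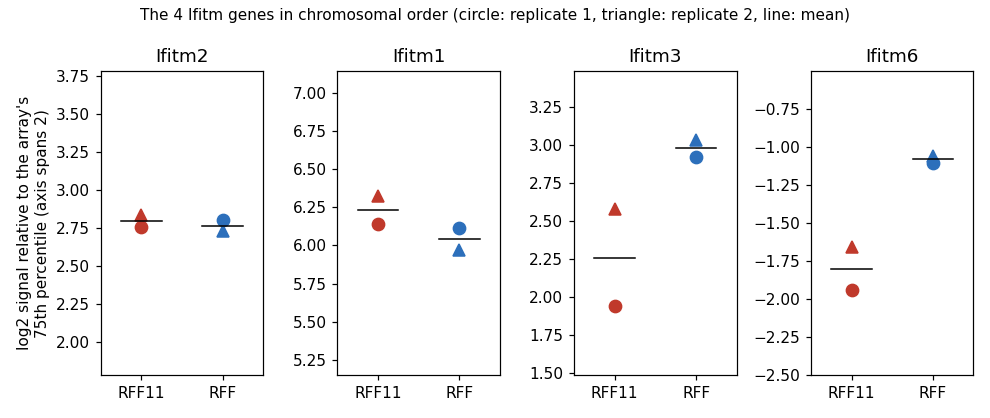
Level of the 4 Ifitm genes on each array (vertical axis, log2 signal relative to the 75th percentile, every panel spanning the same range), RFF11 left and RFF right, with the mean as a line. Ifitm3 and Ifitm6 were lower on both RFF11 arrays, at changes of -0.72 each, while Ifitm2 overlapped and Ifitm1 stood at 0.19.

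The promoters of these neighbours are shown to set their response elements side by side. Each holds the 250 bases before the start of transcription and the 50 after it, from RefSeq (GRCm38.p6), at chr7:140955912-140956211 on the minus strand for Ifitm2, chr7:140967826-140968125 on the plus strand for Ifitm1, chr7:141010695-141010994 on the minus strand for Ifitm3 and chr7:141016843-141017142 on the minus strand for Ifitm6. Capitals mark the ISRE core, searched as GAAA, any 2 bases and GAAA again, on both strands.
Ifitm2: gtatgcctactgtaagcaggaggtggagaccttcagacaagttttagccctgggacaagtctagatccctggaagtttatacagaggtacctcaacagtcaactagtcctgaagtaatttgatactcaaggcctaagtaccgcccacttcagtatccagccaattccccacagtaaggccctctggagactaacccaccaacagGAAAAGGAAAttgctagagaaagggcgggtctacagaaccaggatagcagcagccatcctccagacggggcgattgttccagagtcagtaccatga
Ifitm1: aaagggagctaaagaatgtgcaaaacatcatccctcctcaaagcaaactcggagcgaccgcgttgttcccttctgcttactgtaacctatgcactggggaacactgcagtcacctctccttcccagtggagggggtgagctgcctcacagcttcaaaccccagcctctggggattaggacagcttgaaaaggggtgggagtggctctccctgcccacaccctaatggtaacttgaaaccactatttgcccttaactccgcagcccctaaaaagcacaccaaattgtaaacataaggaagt
Ifitm3: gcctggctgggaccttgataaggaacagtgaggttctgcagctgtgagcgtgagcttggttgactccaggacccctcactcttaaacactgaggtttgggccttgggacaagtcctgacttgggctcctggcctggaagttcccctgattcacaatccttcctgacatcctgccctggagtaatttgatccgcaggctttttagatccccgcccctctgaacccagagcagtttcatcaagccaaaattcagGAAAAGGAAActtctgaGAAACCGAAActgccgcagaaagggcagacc
Ifitm6: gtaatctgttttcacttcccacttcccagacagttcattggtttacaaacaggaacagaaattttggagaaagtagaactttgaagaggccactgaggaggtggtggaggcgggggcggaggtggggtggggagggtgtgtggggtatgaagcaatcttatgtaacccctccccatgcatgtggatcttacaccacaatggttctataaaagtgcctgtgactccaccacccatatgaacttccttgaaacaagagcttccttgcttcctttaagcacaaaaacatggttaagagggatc
Ifitm3 held 2 matches, both after the start, Ifitm2 held 1 and Ifitm1 and Ifitm6 held 0 in this window. The genes at -0.72 were thus 1 with matches and 1 without.

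Rsad2, known as viperin, makes a nucleotide that stops viral RNA polymerases, and its chromosomal neighbour Cmpk2 is a nucleotide kinase that supplies the same route. Rsad2 read -2.68 and -2.30 in RFF11 cells, against -2.07 and -1.59 in RFF cells, a change of -0.66 (SE 0.22, adjusted p = 0.187). Cmpk2 read -3.81 and -3.33, against -3.26 and -2.81 in RFF cells, a change of -0.54 (SE 0.24, adjusted p = 0.268), and its second probe stood at -0.47. For both genes the RFF11 arrays were lower without overlap, but the 2 arrays of a genotype were themselves 0.38 to 0.48 apart. The Ifit proteins bind foreign RNA and block its translation. Ifit1 read -3.86 and -3.22 in RFF11 cells, against -3.37 and -2.68 in RFF cells, a change of -0.51 (SE 0.33, adjusted p = 0.406). Ifit2 (-0.29) and Ifit3 (-0.14) lay nearer 0, and all 3 overlapped between genotypes. Ifit3 and its copy Ifit3b are close in sequence, and whether their probes tell them apart was not tested.

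Among the other effectors Samhd1 was lower on both RFF11 arrays without overlap, and Isg20 and Bst2 were higher without overlap. Samhd1, which removes the DNA building blocks that viruses need, read 3.44 and 3.56 in RFF11 cells, against 3.82 and 3.87 in RFF cells. Its change was -0.35 (SE 0.07, adjusted p = 0.0906), the second probe stood at -0.46, and it passed with normexp (adjusted p = 0.0424) and with the robust prior (adjusted p = 0.0246). Isg20, an RNA exonuclease, had the highest change of the 42, at 0.41 and 0.70 in RFF11 cells, against 0.02 and 0.08 in RFF cells. Its change was 0.50 (SE 0.12, adjusted p = 0.111) with 0.54 on the second probe, and it passed with the robust prior (adjusted p = 0.0434). Bst2 (tetherin), which holds budding virions on the cell, read 4.82 and 4.91 in RFF11 cells, against 4.79 and 4.75 in RFF cells (change 0.10, SE 0.06, adjusted p = 0.404). Its interval, -0.08 to 0.27, was among the narrow ones. Isg15, the ubiquitin-like tag of the response, read 1.75 and 2.44 in RFF11 cells, against 2.07 and 2.32 in RFF cells, so that the RFF arrays fell between the RFF11 arrays. The Oas enzymes make the adenylate chains that activate RNase L. The changes of Oas1a, Oas2, Oas3 and their relatives Oasl1 and Oasl2 lay between -0.15 and 0.04 and all 5 overlapped, with both RFF arrays between the RFF11 arrays for all but Oas1a. Oas1a and Oas1g are close in sequence, and whether their probes tell them apart was not tested. The remaining effectors were Rtp4 (-0.51, SE 0.39), Xaf1 (-0.11, SE 0.15) and Ifi44 (0.03, SE 0.39), which overlapped as well. Over the 21 effectors the median change was -0.13 and 14 lay below 0.

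The sensors recognise nucleic acid that does not belong in a cell. Zbp1, which binds Z-form nucleic acid and can trigger necroptosis, read 0.73 and 1.02 in RFF11 cells, against 1.33 and 1.54 in RFF cells. Both RFF11 arrays were lower, with a change of -0.56 (SE 0.13, adjusted p = 0.116), a second probe at -0.31, and a call only after normexp (adjusted p = 0.0418). The RNA helicases differed little. Ddx58 (RIG-I) read 0.78 and 1.07 in RFF11 cells, against 0.93 and 1.04 in RFF cells (change -0.06, SE 0.12, adjusted p = 0.780). Dhx58 (LGP2), a helper of the other helicases, read -1.10 and -0.58, against -0.91 and -0.81 in RFF cells (change 0.02, SE 0.19, adjusted p = 0.954). For both, the RFF arrays lay between the RFF11 arrays. Ifih1 (MDA5) was the steadiest, at 0.59 and 0.66 in RFF11 cells, against 0.60 and 0.60 in RFF cells (change 0.03, SE 0.06, adjusted p = 0.792), with an interval of -0.13 to 0.18. Eif2ak2 (PKR), the kinase that stops translation when it meets double-stranded RNA, read -0.55 and -0.42 in RFF11 cells, against -0.35 and -0.36 in RFF cells. It was lower without overlap (-0.13, SE 0.07, adjusted p = 0.330).

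The GTPases were the role group with the highest median, 0.10 over 7 genes, of which 4 lay above 0 and none had an unadjusted p under 0.05. Leaving out RFF replicate 1 moved that median to -0.07. Of the IRG proteins, which act on the vacuoles of intracellular microbes, Igtp read 1.01 and 1.14 in RFF11 cells, against 0.85 and 0.95 in RFF cells (change 0.17, SE 0.08, adjusted p = 0.271). Iigp1 read -2.49 and -2.45, against -2.58 and -2.71 in RFF cells (change 0.17, SE 0.07, adjusted p = 0.241). Both were higher on each RFF11 array, and the dimmer Iigp1 probe was below background on every array. Ifi47 went the other way, at 2.01 and 2.20 in RFF11 cells, against 2.28 and 2.45 in RFF cells (change -0.26, SE 0.10, adjusted p = 0.232). Irgm1, a regulator of the other IRG proteins, read 0.91 and 1.20, against 1.16 and 1.22 in RFF cells, which overlapped (change -0.14, SE 0.12, adjusted p = 0.517). Guanylate-binding proteins coat microbes and their vacuoles. Gbp2 read 3.25 and 3.32 in RFF11 cells, against 3.34 and 3.35 in RFF cells (change -0.06, SE 0.06, adjusted p = 0.551), without overlap. Gbp3 read 2.58 and 2.57, against 2.27 and 2.68 in RFF cells (change 0.10, SE 0.15, adjusted p = 0.721), which overlapped. Gbp5 stood at 0.10 (SE 0.07) without overlap. Gbp3 was the one gene of this role with a wide gap between the RFF arrays. Gbp genes are close copies, and whether their probes tell them apart was not tested. A wider family, put together after the values were seen, joined these 7 to 8 further GBP and IRG genes of the pathway list. Of the 15, 11 lay above 0, against 8509 of all 17974 genes tested, and none passed. The highest was Gbp6 (0.44, SE 0.13, adjusted p = 0.159).

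The transcription factors include those that carry the signal. Stat2 and Irf9 are partners at the ISRE. Stat2 read 2.36 and 2.58 in RFF11 cells, against 2.45 and 2.45 in RFF cells (change 0.01, SE 0.09, adjusted p = 0.939). Irf9 read 2.22 and 2.41, against 2.38 and 2.41 in RFF cells (change -0.08, SE 0.09, adjusted p = 0.604). Both overlapped, with RFF arrays that were alike. Irf7, which amplifies type I interferon, read -2.74 and -2.06 in RFF11 cells, against -2.66 and -2.25 in RFF cells, a change of 0.06 (SE 0.28, adjusted p = 0.920) with the RFF arrays between the RFF11 arrays. Irf1, which is driven by interferon-gamma and by NF-kappaB, read 2.71 and 2.66 in RFF11 cells, against 2.50 and 2.41 in RFF cells. It was higher on both RFF11 arrays by a small amount (0.23, SE 0.06, adjusted p = 0.150).

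The regulators shape the response. Usp18, which strips Isg15 from proteins and damps the type I receptor, read 0.69 and 1.20 in RFF11 cells, against 1.36 and 1.37 in RFF cells, a change of -0.42 (SE 0.19, adjusted p = 0.267). Here the RFF arrays were alike and the RFF11 arrays were not. Parp14, an ADP-ribosyltransferase, read 2.02 and 2.10 in RFF11 cells, against 2.18 and 2.14 in RFF cells (change -0.10, SE 0.06, adjusted p = 0.394). Herc6, the mouse ligase for Isg15, read -2.41 and -2.28, against -2.38 and -2.15 in RFF cells (change -0.08, SE 0.11, adjusted p = 0.699). Parp14 was lower without overlap by a small amount, and Herc6 overlapped. Trim30a, which restrains Toll-like receptor signalling, read 0.52 and 0.89 in RFF11 cells, against 0.66 and 0.80 in RFF cells (change -0.03, SE 0.15, adjusted p = 0.925). Ifi35, a partner of Nmi, read 2.39 and 2.43 in RFF11 cells, against 2.20 and 2.30 in RFF cells (change 0.17, SE 0.06, adjusted p = 0.225). It was the regulator above 0, and its RFF11 arrays were both higher.

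**Figure D3:**
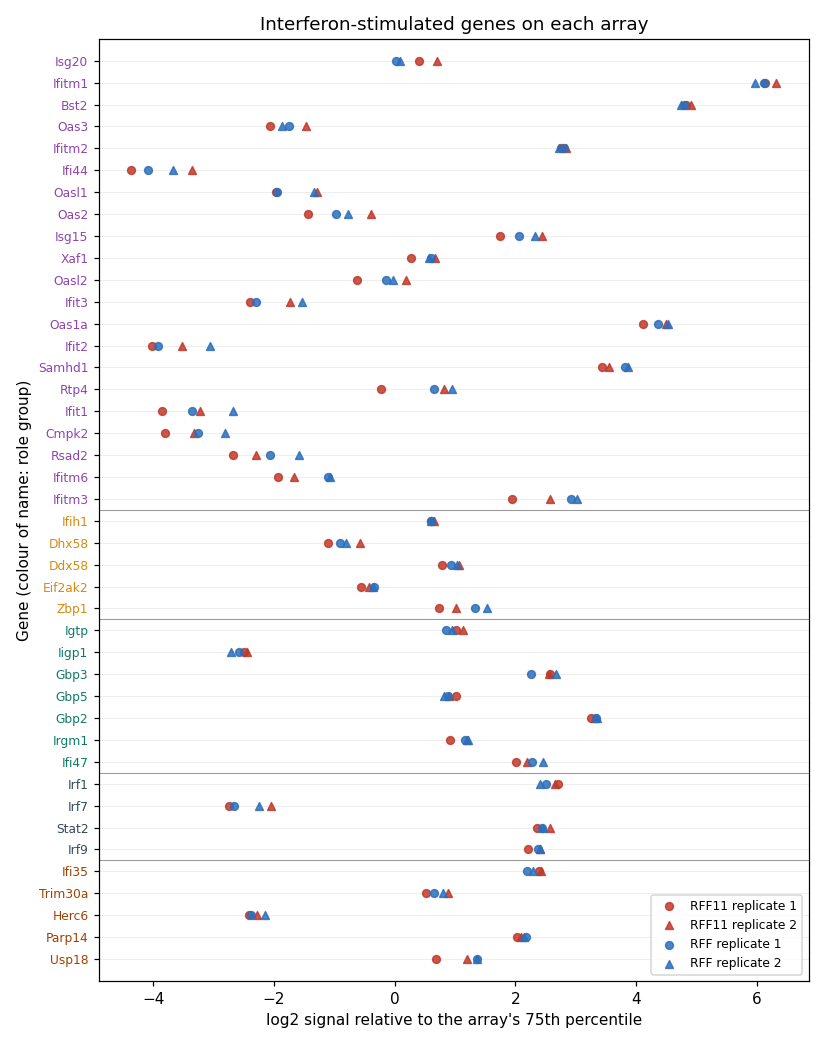
Level of each of the 42 genes on the 4 arrays (horizontal axis, log2 signal relative to the 75th percentile), with gene names coloured by role, RFF11 in red, RFF in blue, replicate 1 as circles and replicate 2 as triangles. For genes such as Oas2 and Ifi44 the RFF11 arrays lie on either side of both RFF arrays, and levels of different genes come from different probes and are not to be compared.

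Array by array, the 42 genes had a median difference by size of 0.29 between the 2 RFF11 arrays and 0.13 between the genotype means. Over all genes these were 0.08 and 0.12. On RFF11 replicate 2, 39 of the 42 genes were brighter than on RFF11 replicate 1, where 49.2% of all genes were. The median difference was 0.29, against 0.00 over all genes. Of the 42, 13 (31.0%) were more than 0.5 apart on the RFF11 arrays, against 3.59% of all genes and 1.93% of the 14175 genes whose mean level lay within the range of these 42. Rtp4 read -0.23 on RFF11 replicate 1 and 0.82 on RFF11 replicate 2, Oas2 read -1.43 and -0.40, and Ifi44 read -4.36 and -3.36. Oasl2 differed by 0.82, Isg15 by 0.70, Oasl1 and Irf7 by 0.69 each and Ifit3 by 0.66. A second probe was well above background on all arrays for 10 genes and ran the same way as the first between the RFF11 arrays for 9 of them, the exception being the dim second probe of Ddx58. The second probe of Isg15 read -1.88 on replicate 1 and -1.09 on replicate 2, and that of Oas1a read 1.53 and 2.01. For 25 of the 42 the difference between the RFF11 arrays was larger than the difference between the genotype means, or 59.5%, against 38.9% of all genes. A mean of 2 arrays varies less than 1 array, so these 2 differences are unlike measures.

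Among the 42, the RFF arrays differed less and for fewer genes. RFF replicate 2 was brighter than RFF replicate 1 for 31 of the 42, against 50.8% of all genes, with a median of 0.10. Of the 42, 4 (9.52%) were more than 0.5 apart, against 3.87% of all genes and 1.38% of the 14175 genes in their range of level. These 4 were the Ifit genes and Oasl1, at 0.87 for Ifit2, 0.77 for Ifit3, 0.68 for Ifit1 and 0.61 for Oasl1. In both genotypes together 30 of the 42 were brighter on replicate 2, or 71.4%, against 24.2% of all genes. With 39 of the 42 brighter in RFF11 cells and 31 in RFF cells, a joint count near this follows without any link between the genotypes. Across the 42 genes the difference in RFF11 cells and that in RFF cells correlated at r = 0.50 (Pearson), against -0.05 across the 17974 genes. These are correlations across genes, which share their arrays and are not independent, and all 4 arrays lay on 1 slide, where position and sample cannot be told apart.

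**Figure D4:**
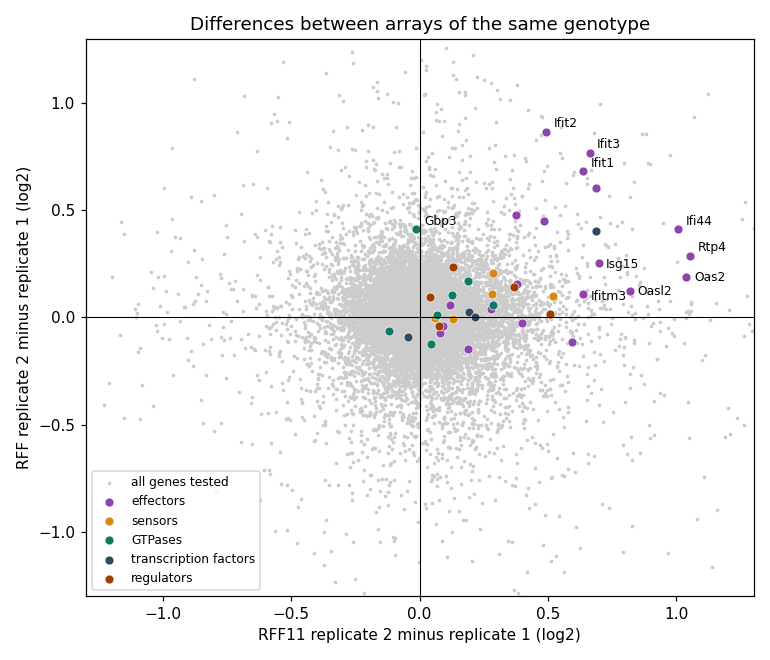
Difference between the arrays of a genotype for each gene, replicate 2 minus replicate 1 on the log2 scale, in RFF11 cells (horizontal axis) and RFF cells (vertical axis), with all genes tested in grey and the 42 genes coloured by role. Axes end at 1.3, which leaves 144 grey genes outside, and 30 of the 42 lie above 0 on both axes.

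No test of a difference between roles in this spread was made. The median difference between the RFF11 arrays, by size, was 0.49 for the effectors, 0.28 for the sensors, 0.20 for the transcription factors, 0.13 for the regulators and 0.12 for the GTPases, against 0.08 over all genes. All 21 effectors, 5 sensors and 5 regulators were brighter on RFF11 replicate 2, as were 5 of 7 GTPases and 3 of 4 transcription factors. Effectors that hardly differed were Ifitm2 (0.08) and Bst2 (0.09). Of the marker lists of cell types, the 5 T, B and natural killer cell markers had a median difference by size of 0.19. By size it was 0.14 for plasmacytoid dendritic cells and 0.12 for neutrophils. It was 0.09 each for monocytes and macrophages, dendritic cells and mature dendritic cells. With its sign, replicate 2 minus replicate 1, the median was 0.19 for the T, B and natural killer cell markers. The signed median was 0.03 for plasmacytoid dendritic cells, 0.02 for neutrophils and -0.07 for monocytes and macrophages. It was -0.09 each for dendritic cells and mature dendritic cells. The part of any cell type in the array spread was not tested. The direction of the genotype comparison moved with the array left out. Without RFF11 replicate 1, 14 of the 42 lay below 0, and without RFF11 replicate 2, 33 did. Over all genes the shares below 0 were 51.3% and 51.2%. Without RFF replicate 1, 30 of the 42 lay below 0, and without RFF replicate 2, 21 did. Over all genes these shares were 54.6% and 53.1%.

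**Figure D5:**
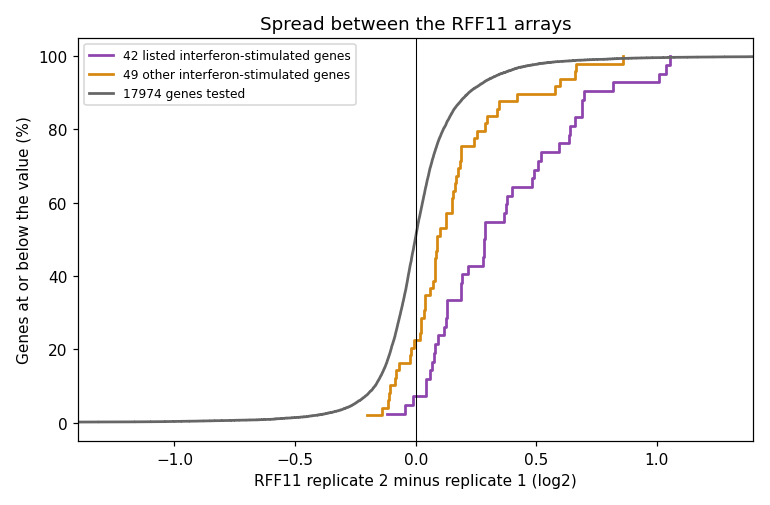
Share of genes (vertical axis, percent) at or below each difference between the RFF11 arrays (horizontal axis, replicate 2 minus replicate 1, log2), whose axis ends before the most extreme of all genes. The 42 genes have a median of 0.29 and 49 other interferon-stimulated genes a median of 0.09, against 0.00 for all genes tested.

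The ISRE was common in front of these genes. RefSeq promoters (GRCm38.p6) were at hand for 35 of the 44. Of these, 19 (54.3%) held the ISRE core on either strand, against 3.99% of 27025 genes (3.44% of 32851 promoters of the same length). The GAS core TTCNNNGAA was found in 12 of 35 (34.3%), against 9.55% of genes (8.30% of promoters), and the Rbpj core TGGGAA, on either strand, in 14 of 35 (40.0%), against 28.3% of genes (25.6% of promoters). Of 29 ISRE matches 2 overlapped a GAS match. Stretches with 30 bases to each side of the matches are shown for 7 genes that differed in their gap between the RFF11 arrays, from 0.70 for Isg15 to 0.07 for Gbp2, with the ISRE core in capitals. They lie at chr12:26456533-26456602 (minus strand), chr19:34640755-34640843 (plus), chr19:34583343-34583446 (plus), chr4:156200845-156200926 (minus), chr5:120907500-120907575 (minus), chr8:71537557-71537632 (minus) and chr3:142620574-142620643 (plus), in GRCm38.p6.
Rsad2: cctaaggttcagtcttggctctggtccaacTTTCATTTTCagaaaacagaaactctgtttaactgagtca
Ifit1: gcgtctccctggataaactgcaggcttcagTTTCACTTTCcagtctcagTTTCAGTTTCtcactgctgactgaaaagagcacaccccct
Ifit3: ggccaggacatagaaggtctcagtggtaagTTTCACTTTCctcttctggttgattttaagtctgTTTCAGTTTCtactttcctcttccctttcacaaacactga
Isg15: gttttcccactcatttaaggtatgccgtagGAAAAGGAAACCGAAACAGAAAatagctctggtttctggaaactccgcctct
Oas1a: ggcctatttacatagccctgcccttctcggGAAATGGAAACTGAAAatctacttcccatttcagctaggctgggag
Bst2: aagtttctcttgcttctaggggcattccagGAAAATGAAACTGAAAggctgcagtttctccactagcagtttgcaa
Gbp2: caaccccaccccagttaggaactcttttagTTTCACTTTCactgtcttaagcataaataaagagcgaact
Isg15 held 3 overlapping matches in 1 run, and Oas1a and Bst2 held 2 overlapping matches each. Isg15 differed by 0.70 between the RFF11 arrays, Oas1a by 0.38 and Bst2 by 0.09. The 19 genes with a match had a median difference of 0.28 between the RFF11 arrays and the 16 without had 0.28, and the median changes between genotypes were -0.06 and -0.08. For the GAS core the median difference between the RFF11 arrays was 0.13 in the 12 genes with a match and 0.37 in the 23 without, and the median changes between genotypes were -0.02 and -0.06. For the Rbpj core the median changes were -0.05 in the 14 genes with a match and -0.06 in the 21 without. None of these splits was tested. A match describes these letters in this window and is not a bound site.

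The rest of the pathway was followed in a list of 105 further genes, of which 96 had a probe and 87 were tested. None passed, against 1.88% of all genes, and 21 (24.1%) had an unadjusted p under 0.05, the same share as over all genes. Their median change was -0.01. Of the interferons themselves, Ifnb1, Ifng and Ifna4 were not well above background on any array. Ifna1, Ifna2, Ifna5, Ifna12 and Ifnl3 were flagged well above it on all 4, and their changes lay between -0.11 for Ifna2 (SE 0.15) and 0.07 for Ifna5 (SE 0.06). The Ifna probes were dim, from -4.99 for Ifna12 to -3.88 for Ifna1. The dimmest spots flagged well above background read -5.95 to -5.50, depending on the array. The Ifna genes are close copies that probes may not tell apart. Of the 10 receptor and kinase genes, Ifnar1 read 1.02 and 1.09 in RFF11 cells, against 1.29 and 1.20 in RFF cells (change -0.19, SE 0.07, adjusted p = 0.198), and Ifnar2 stood at 0.03 (SE 0.06). The lowest was Ifnlr1, the lambda receptor chain, at -0.36 (SE 0.14, adjusted p = 0.222). Of the 14 sensing receptors and adaptors, 9 lay below 0, from Trex1, a DNA exonuclease, at -0.42 (SE 0.10, adjusted p = 0.111) to Tlr3 at 0.15 (SE 0.22). Irf4 was the lowest of the other interferon regulatory factors (-0.26, SE 0.08, adjusted p = 0.183) and Irf3 the highest (0.07, SE 0.06). Among the negative regulators Socs1 read 2.81 and 2.71 in RFF11 cells, against 2.46 and 2.53 in RFF cells (0.26, SE 0.07, adjusted p = 0.135), and Ptpn2 was the lowest (-0.08, SE 0.07).

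The 49 other interferon-stimulated genes tested had a median change of 0.02, with 26 above 0 and 23 below. Ly6a (Sca-1), a surface protein induced by both kinds of interferon, was the highest at 0.61 and 1.47 in RFF11 cells, against -0.43 and -0.69 in RFF cells. Both RFF11 arrays were higher, but they were 0.86 apart, and the change of 1.60 (SE 0.32, adjusted p = 0.0909) passed only with normexp (adjusted p = 0.0370) and the robust prior (adjusted p = 0.0430). Ifi27l2a was the lowest, at 5.13 and 5.79 in RFF11 cells, against 6.06 and 6.16 in RFF cells (-0.65, SE 0.24, adjusted p = 0.213). Of the 49, 38 were brighter on RFF11 replicate 2 than on RFF11 replicate 1, or 77.6%, against 49.2% of all genes. Cxcl10, a chemokine of the response, read -2.04 and -1.45 in RFF11 cells, against -2.17 and -1.50 in RFF cells, with a change of 0.09 (SE 0.32) and about the same gap between the arrays in each genotype.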

How the data were processed

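RNA was hybridised to 4 one-colour Agilent arrays (Cy3, 150 ng). Per the file headers, the deposited spot intensity was read by Agilent Feature Extraction 10.7.1.1, with background subtraction and detrending and no scaling between arrays, and the deposited flags mark spots well above background, saturated (0 of them) or outlying. The authors also deposited a log2 table, whose making is not given in the sources used here. It tracked the log2 scanner signal centred on each probe's median with r of 0.99995 or more and the same direction, with column medians of -0.03391, 0.02018, 0.05282 and -0.0305 for RFF11 and RFF replicates 1 and 2, and served as an alternative.

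Signal was taken to log2, minus each array's 75th percentile. Outlying spots (127 to 176 an array) were left out and spots of a probe averaged. A probe stayed if both arrays of at least 1 genotype were well above background, and the probe with the highest mean stood for a gene. Probes were named through RefSeq accessions (GRCm38.p6, names and order only, as the file headers give mm9): of 39429 probes 26055 had 1 symbol, 0 several and 13374 none. Probes with none were kept under their systematic name, so the genes tested include transcripts without a symbol. limma 3.58.1 in R 4.3.3 (lmFit, eBayes) was fitted to 17974 genes, with Benjamini-Hochberg adjustment over all of them, and the procedure was tested on simulated data. Python 3.11.15, numpy 2.4.6, pandas 2.3.3 and matplotlib 3.10.9 were used for the rest. The genes, lists, tests and alternatives were chosen with earlier results of these data known. All 42 genes found on the array were reported, in full the 3 highest and 3 lowest changes of each role. Of the pathway list the highest and lowest of each subgroup, Ifnb1, Ifnar1 and Ifnar2 were named, and 1 further gene is not reported here. The normexp alternative used the median signal, since the files hold no mean signal. Columns of other samples left out numbered 0.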

Additional observations from a re-analysis of the deposited data

How the results depend on the processing

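Of 546 values of the 42 genes under 13 alternatives, 38 changed sign, 7 became calls and 0 reversed a call. Under normexp 3 of the 42 and 3 pathway genes passed, or 7.14% of the 42, against 5.49% of all genes (986). Under the trended robust prior 3 of the 42 and 9 pathway genes passed, or 7.14% of the 42, against 8.61% of all genes (1547). Scaling to the array median called 1 of the 42 (Ifitm6), or 2.38%, against 2.44% of all genes (439). It put the GTPase median at 0.068 and 31 of the 42 below 0 (73.8%), with 59.6% of all genes below 0. Without a filter on dim probes 0 of 32496 genes, counting transcripts without a symbol, passed in limma. At an unadjusted p under 0.05 there were 3654, and Rbpj was lost too (adjusted p = 0.26). The quantile, authors' table, all-array filter and mean-of-probes alternatives called 0 of the 42 each (7 or 8 at an unadjusted p under 0.05). With the replicate number as a block limma called 0 of all genes (3677 at an unadjusted p under 0.05) and 0 of the 42, and the block left 1 residual degree of freedom. The arrays share only that number: same-numbered arrays deviated together at r = -0.05 over all genes and 0.50 over the 42.

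Leaving out 1 array gave 0 to 138 calls over all genes, 0 in the 42 and 0 to 1 in the pathway list (Oas1g, without RFF replicate 1). The median ranged from -0.27 to 0.073 for the 42, -0.47 to 0.091 for effectors, -0.20 to 0.058 for sensors, -0.067 to 0.11 for GTPases, -0.14 to 0.16 for transcription factors and -0.14 to 0.041 for regulators. The causes were not tested, and the smaller number of arrays cannot be told apart from the array left out. In alternatives chosen after seeing the data, 37 to 40 of the 42 were brighter on RFF11 replicate 2 and 10 to 13 were over 0.5 apart. The 2 arrays per genotype limit all of these.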
